A study of Mus musculus with 2 samples.

Results

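The miR-99, miR-100 and miR-125 genes sit beside let-7 genes in 3 paralogous loci of the mouse genome, and their levels in embryonic stomach are described here. They were taken by name: a row of either table belonged to them when its Ensembl identifier carries the symbol Mir99a, Mir99b, Mir100, Mir125a, Mir125b-1 or Mir125b-2 in GENCODE. This gave 6 of the 1973 miRNA genes in the tables. The rule uses names and no measured value, though the set was picked with earlier results of these data known. Small RNA below 30 nt was sequenced from whole stomach of B6NCrl mouse embryos of both sexes, pooled at embryonic day 15.5. Replicate 1 came from 78 embryos and replicate 2 from 62 embryos, and the labels give no second condition, genotype or treatment. The comparisons are therefore between genes within a library and between the 2 pools. In whole-organ RNA, fewer cells of a type and less RNA per cell cannot be told apart.

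Replicate 1 held 5988677 sense-strand reads over all miRNA genes and replicate 2 held 6675498, and levels are given as CPM, a gene's sense count divided by that total and multiplied by 1000000. A count of 0 allowed up to 0.501 CPM in replicate 1 and 0.449 CPM in replicate 2. Such limits and all intervals cover counting error only. Markers of the tissue were present: the smooth muscle list (Mir143, Mir145a) summed to 178423 and 183398 CPM, the epithelial list to 40296 and 40159.9 CPM and the forestomach list (Mir203, Mir205) to 17201 and 11806 CPM in replicates 1 and 2. The 3 copies of the neuronal Mir124a are listed at 0. They give the same mature miRNA, so its reads may be among those that matched several places, and the 0 says nothing of its level. Some markers differed between the pools: Mir122, the hepatocyte miRNA, stood at 2445 CPM in replicate 1 and 757 CPM in replicate 2, and the endocrine Mir375 at 12876 CPM and 23221 CPM. The blood list (Mir451a, Mir144, Mir223) summed to 1949 CPM in replicate 1 and 1446 CPM in replicate 2. Its log2 ratios of replicate 1 over replicate 2 were 1.06 for Mir451a, 1.10 for Mir144 and 0.17 for Mir223. The skeletal and heart muscle list (Mir206, Mir208a) summed to 112 CPM and 194 CPM, with -0.85 for Mir206 and 1.22 for Mir208a, the last from 35 and 13 counts. Their part in the differences between the pools given further on was not tested.

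These miRNAs belong to one of the oldest known miRNA arrangements. In Drosophila, mir-100, let-7 and mir-125 are made from 1 primary transcript, and miR-125 is the relative of lin-4, which together with let-7 times developmental stages in Caenorhabditis elegans. In mammals miR-125 and let-7 both repress Lin28, whose protein blocks let-7 maturation, and miR-99 and miR-100 are known repressors of the mTOR growth pathway. A miRNA recognises its targets mainly through its seed, bases 2 to 8 from the 5′ end.

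The mature 5′ arms below (RefSeq, build GRCm38.p6, all on the plus strand) are shown because they decide which of the genes can be told apart by a read. Capitals mark the seed.
miR-99a-5p, chromosome 16: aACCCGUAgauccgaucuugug
miR-100-5p, chromosome 9: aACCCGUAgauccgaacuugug
miR-99b-5p, chromosome 17: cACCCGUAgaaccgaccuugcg
miR-125a-5p, chromosome 17: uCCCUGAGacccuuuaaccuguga
miR-125b-5p, chromosomes 9 and 16: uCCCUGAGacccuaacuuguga
Counting positions from 1 at the 5′ end, miR-99a-5p and miR-100-5p were identical in 21 of 22 bases and differed by U16A, and miR-99a-5p differed from miR-99b-5p by A1C, U11A, U16C and U21C. All 3 share the seed ACCCGUA, and no other mature miRNA of the RefSeq table carries it at these positions or shifted by 1 base. miR-125a-5p has 24 bases and miR-125b-5p 22, and they share their first 13.

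Mir125b-1 and Mir125b-2 give the same 5′ arm, letter for letter, from 2 chromosomes. Their 3′ arms, shown because each belongs to 1 gene alone, differ at 5 of 22 positions (G3A, G4A, U7C, C11U and G20C, from Mir125b-1 to Mir125b-2).
miR-125b-1-3p, chromosome 9: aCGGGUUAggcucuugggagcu
miR-125b-2-3p, chromosome 16: aCAAGUCAgguucuugggaccu
Reads that matched several places are a line of their own in the tables (2946663 reads in replicate 1 and 3406967 in replicate 2) and are in no gene's count. Which miRNAs they came from is not given there, so the Mir125b-1 and Mir125b-2 levels below are levels of reads placed at 1 site and may be too low. The tables do not separate the arms of a hairpin.

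Each locus has the same order on its plus strand, a miR-99/100 gene, then let-7, then a miR-125 gene, but the loci differ in size. On chromosome 16 the locus runs from Mir99a at 77598936 to the end of Mir125b-2 at 77646343 and spans 47408 bases. On chromosome 9 it runs from Mir100 at 41531425 to the end of Mir125b-1 at 41582002, or 50578 bases. On chromosome 17 Mir99b, Mirlet7e and Mir125a lie within 692 bases, from 17830188 to 17830879. By GENCODE M21 the chromosome 16 genes lie in introns of the 4 transcripts of the noncoding host gene Mir99ahg that span them. Mir99b and Mirlet7e are intronic in the 2 transcripts of the protein-coding gene Spaca6 that span them, while Mir125a is intronic in 2 Spaca6 transcripts and overlaps an exon of 1. Mir100 is intronic in 13 transcripts of the noncoding gene 3110039I08Rik and Mir125b-1 in 24, and both are intronic in 1 transcript of the lincRNA Gm49317. Mir125b-1 also overlaps an exon of 1 transcript of Gm28119, a sense-intronic RNA.

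Together the 6 genes took 8.21% of replicate 1, with a 95% Wilson interval of 8.19 to 8.23, and 8.74% of replicate 2, with one of 8.72 to 8.76. The miR-99/100 genes made up nearly all of this: they held 7.65% in replicate 1 and 8.28% in replicate 2, whereas the miR-125 genes held 0.559% and 0.463%. The miR-99/100 counts exceeded the miR-125 counts 13.7 times in replicate 1 and 17.9 times in replicate 2. By locus, chromosome 16 gave 69.6% ± 0.341 of the members' counts (SD, n = 2), chromosome 17 21.3% ± 0.198 and chromosome 9 9.06% ± 0.538. Any miR-125b reads that matched several places are in none of these counts. With them the ratio of miR-99/100 to miR-125 would be lower, and the shares could differ. A small RNA read covers a whole mature miRNA, so counts were set side by side with no length scaling. They compare reads, and the recovery of each sequence in the library was not measured.

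Among the miR-99/100 genes the chromosome 16 copy led by far. Mir99a had 340095 counts in replicate 1 and 401426 in replicate 2, which is 56789.7 CPM and 60134 CPM. By reads placed at 1 site it stood at place 2 among the miRNA genes in both libraries. Mir99b had 79070 counts in replicate 1 and 100130 in replicate 2, or 13203 CPM and 14999.6 CPM. Mir100 had 39103 counts in replicate 1 and 51114 in replicate 2, or 6529 CPM and 7657 CPM. The 3 genes kept this order in both libraries and their ranges did not overlap. Mir99a exceeded Mir99b by 2.05 ± 0.072 on the log2(CPM + 1) scale (SD, n = 2) and Mir100 by 3.05 ± 0.10, and Mir99b exceeded Mir100 by 0.99 ± 0.032. Each of these differences was at least 28.6 times its SD between the pools. With 2 pools a two-sided exact sign-flip test cannot give a p below 0.5, so no p is given for differences between genes. Mir99a thus held 73.4% ± 1.12 of the miR-99/100 counts, Mir99b 17.7% ± 0.611 and Mir100 8.89% ± 0.506.

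**Figure D1:**
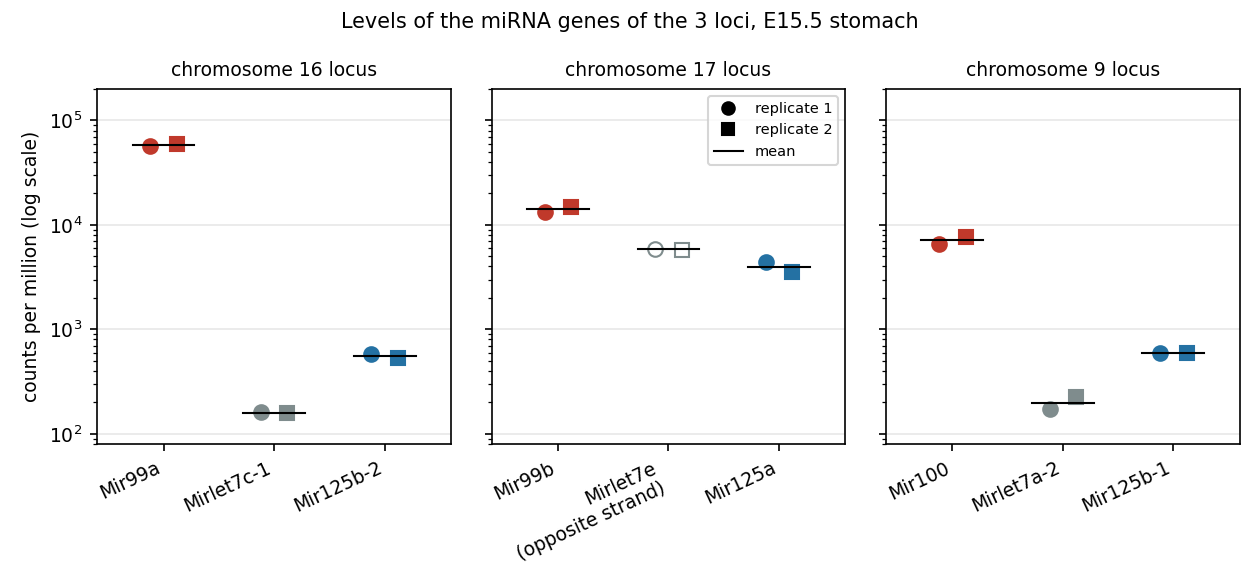
Levels of the miRNA genes of each locus in CPM on a log axis; circles are replicate 1, squares replicate 2 and lines the mean of both. By reads placed at 1 site the miR-99/100 gene is the highest in each locus, from 58462 CPM for Mir99a to 7093 CPM for Mir100; the open symbols for Mirlet7e are opposite-strand counts of a gene that overlaps it.

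Among the miR-125 genes the loci stood in another order by reads placed at 1 site, with the chromosome 17 gene on top. Mir125a had 26440 counts in replicate 1 and 23461 in replicate 2, or 4415 CPM and 3514 CPM. Mir125b-1 had 3557 counts in replicate 1 and 3960 in replicate 2, or 594 CPM and 593 CPM, and Mir125b-2 had 3473 and 3513 counts, or 579.9 CPM and 526 CPM. By reads placed at 1 site Mir125a was thus far above both Mir125b genes in each library. The difference was 2.73 ± 0.23 over Mir125b-1 and 2.83 ± 0.13 over Mir125b-2 on the log2 scale (SD, n = 2). With both Mir125b genes summed, as copies of 1 mature miRNA, the difference was 1.78. Mir125a held 77.4% ± 2.23 of the miR-125 counts, Mir125b-1 11.7% ± 1.54 and Mir125b-2 10.9% ± 0.693 (SD, n = 2). The lead of Mir125a would be smaller by whatever miR-125b reads are in the line of reads that matched several places. That line held 2946663 reads in replicate 1 and 3406967 in replicate 2, far more than Mir125a. A small part of it would be enough to reverse the order, and its make-up was not tested.

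The 2 Mir125b genes were close to even by reads placed at 1 site. Any reads of their shared 5′ arm that matched both genes are in neither count. How much miR-125b each gene gives can therefore not be compared. Mir125b-1 exceeded Mir125b-2 by 0.03 in replicate 1 (95% exact interval -0.03 to 0.10) and by 0.17 in replicate 2 (0.11 to 0.24). Their mean difference, 0.10 ± 0.098 on the log2 scale, was about as large as its SD. The levels of the neighbouring miR-99/100 genes, Mir100 on chromosome 9 and Mir99a on chromosome 16, differed by 3.05 in the other direction between the same 2 loci.

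**Figure D2:**
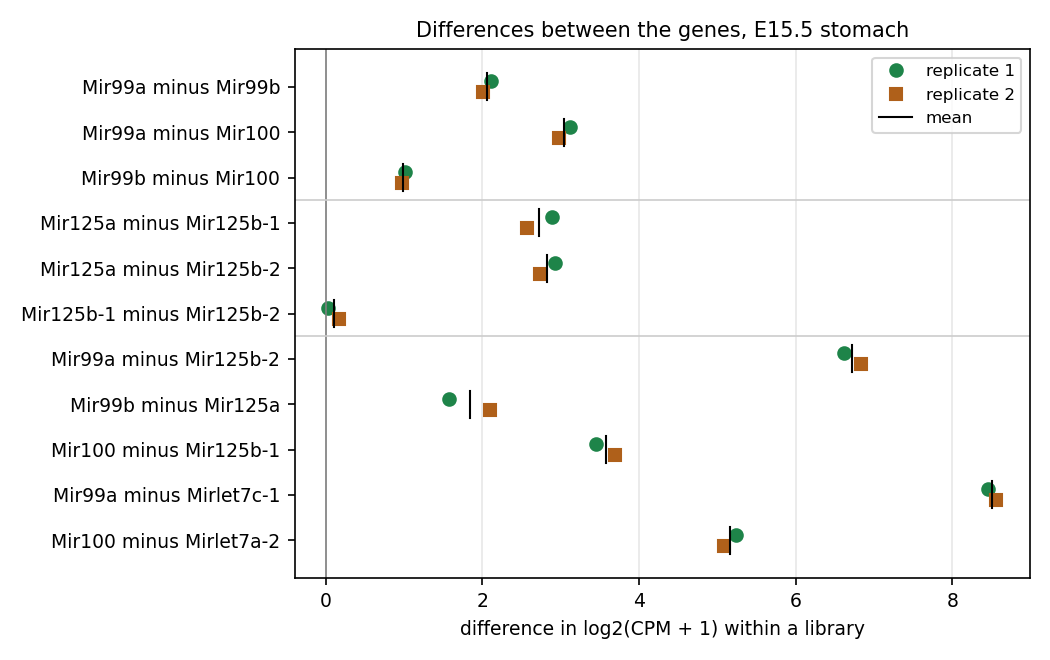
Differences between pairs of genes in log2(CPM + 1) within a library; circles are replicate 1, squares replicate 2 and black lines the mean. By reads placed at 1 site only Mir125b-1 minus Mir125b-2 lies near 0, with a mean of 0.10. By the same reads Mir99a minus Mirlet7c-1 is the largest of the pairs drawn, with a mean of 8.51.

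The step from the miR-99/100 gene to the miR-125 gene of the same locus was of very different size in the 3 loci. On chromosome 16 Mir99a exceeded Mir125b-2 by 6.61 in replicate 1 and 6.83 in replicate 2 on the log2 scale. On chromosome 9 Mir100 exceeded Mir125b-1 by 3.46 in replicate 1 and 3.69 in replicate 2. On chromosome 17, the compact locus, Mir99b exceeded Mir125a by 1.58 in replicate 1 and 2.09 in replicate 2. The step on chromosome 16 was larger than on chromosome 17 by 4.89 ± 0.21 (SD, n = 2) and larger than on chromosome 9 by 3.15 ± 0.0065, and that on chromosome 9 was larger than on chromosome 17 by 1.74 ± 0.20. The steps on chromosomes 16 and 9 end at a Mir125b gene, whose shared 5′ arm may leave its count too low.

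The let-7 genes of the 3 loci follow, with their 5′ arms (RefSeq, seed in capitals) shown because 2 of them are shared with let-7 genes elsewhere.
let-7c-5p, chromosome 16, plus strand: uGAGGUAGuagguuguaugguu
let-7a-5p, as listed for Mirlet7a-1 on chromosome 13, minus strand: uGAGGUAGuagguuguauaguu
let-7e-5p, chromosome 17, plus strand: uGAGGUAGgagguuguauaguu
From let-7a-5p, let-7c-5p differs by A19G and let-7e-5p by U9G. let-7c-5p is found in Mirlet7c-1 and Mirlet7c-2 and let-7a-5p in Mirlet7a-1 and Mirlet7a-2, while let-7e-5p belongs to Mirlet7e alone.

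Mirlet7c-1, beside Mir99a, stood at 161 CPM in replicate 1 and 158 CPM in replicate 2, and Mirlet7a-2, beside Mir100, at 172 CPM and 224 CPM. Both were below their neighbours on either side by reads placed at 1 site. Mir99a exceeded Mirlet7c-1 by 8.51 ± 0.077 and Mir100 exceeded Mirlet7a-2 by 5.16 ± 0.10 on the log2 scale (SD, n = 2). These differences became 7.50 and 4.14 with the let-7 genes of the same 5′ arm summed, and reads shared by those genes may still be missing.

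Mirlet7e, the middle gene of the chromosome 17 locus, is not a row of the tables. Gm25927, a listed miRNA gene on the minus strand (17830343 to 17830459), covers all 93 bases of its hairpin, and had no sense count. On its opposite strand, that of Mirlet7e, replicate 1 had 35563 counts and replicate 2 had 38802. If these counts are taken for Mirlet7e they come to 5938 CPM in replicate 1 and 5813 CPM in replicate 2. Mir99b would then exceed Mirlet7e by 1.26 ± 0.15 on the log2 scale, and Mirlet7e would exceed Mir125a by 0.58 ± 0.21 (SD, n = 2). With these counts taken for Mirlet7e, the chromosome 17 locus lay within a narrower range than the other 2 by reads placed at 1 site. Its mature miRNAs are each found in 1 gene only. The let-7 and miR-125 genes of the other 2 loci share their 5′ arms with a second gene. Their counts may be too low, so those ranges may be too wide, and by how much was not tested. The opposite-strand counts of the 6 members themselves were 0, save for 1 count at Mir125b-1 in replicate 2.

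The wider let-7 family, a fixed list of 12 genes that includes these 3, had 10 genes in the tables. Its counts exceeded those of the miR-99/100 genes by 1.68 times in replicate 1 and 1.63 times in replicate 2, and those of the miR-125 genes by 23.0 times and 29.2 times. By reads placed at 1 site, to which these ratios also apply, the let-7 genes with the most counts were outside the 3 loci. Reads of let-7a, let-7c and miR-125b that matched several places are not counted, and with them the order and the ratios could differ. Mirlet7g stood at 51847 CPM in replicate 1 and 55743 CPM in replicate 2, and Mirlet7i at 49628 CPM and 50849.8 CPM. Mir99a exceeded Mirlet7g, the next gene below it in the order of mean CPM, by 0.12 ± 0.016 (SD, n = 2), and was the higher of the pair in both libraries.

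The other members lay among genes of like level. Mir99b, at place 17 by mean CPM, lay between the epithelial miRNA Mir200c (mean 14202 CPM) and Mir30e (mean 13924 CPM). Mir100, at place 30, lay between Mir200b, also epithelial (mean 7293 CPM), and Mir214, a miRNA of mesenchyme (mean 7072 CPM). Mir125a, at place 46, lay between Mir181c and Mir431, Mir125b-1, at place 116, between Mir676 and Mir503, and Mir125b-2, at place 121, between Mir320 and Mir543. For these 5 members the ranges of the 2 libraries overlapped those of the genes on either side, so these places are not fixed. For Mir99a they overlapped neither Mir143 above nor Mirlet7g below.

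**Figure D3:**
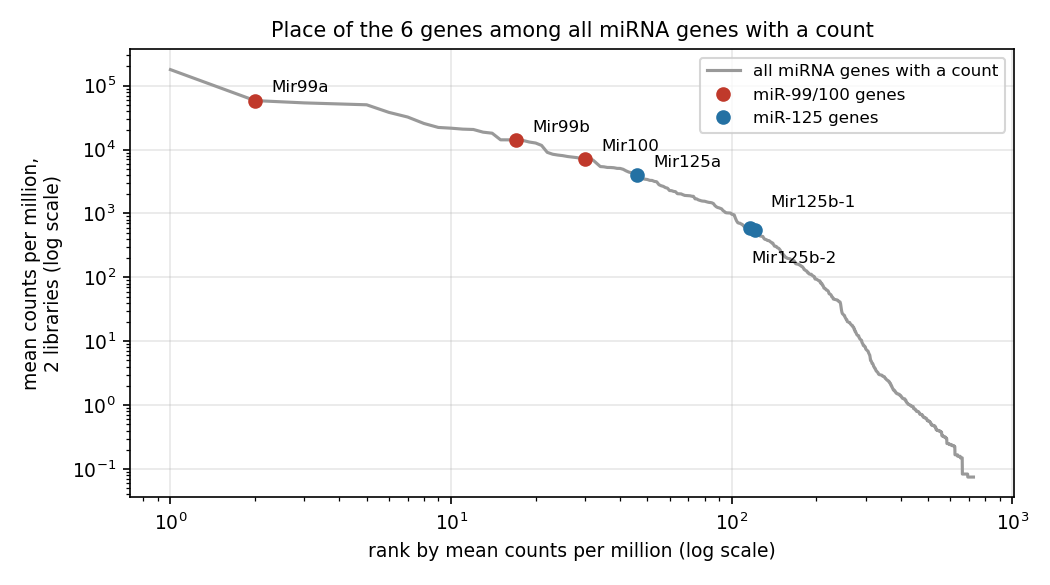
Mean CPM of every miRNA gene with a count against its rank, both on log axes; points mark the 6 genes. Mir99a is at place 2, Mir99b at 17, Mir100 at 30, Mir125a at 46, and Mir125b-1 and Mir125b-2 at 116 and 121.

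The seed of miR-125 is not particular to the 3 loci. Mir351, an X-linked miRNA gene outside them, carries the seed CCCUGAG in its 5′ arm, of 24 bases, which matches miR-125a-5p in the first 8.
miR-351-5p, chromosome X, minus strand: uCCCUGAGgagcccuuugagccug
Mir351 stood at 4679 CPM in replicate 1 and 5806 CPM in replicate 2, which was 1.06 times and 1.65 times the count of Mir125a in the same libraries. The log2 difference of 0.40 ± 0.45 was less than its SD (n = 2). Set against the 3 miR-125 genes summed, Mir351 had 0.837 times their count in replicate 1 and 1.25 times in replicate 2. That sum holds only reads placed at 1 site and may be too low for the Mir125b genes, so these ratios may be too high. Mir6367 and Mir6394, whose mature miRNAs also carry this seed, had no counts. Mir670, which carries it shifted by 1 base, stood at 7.35 CPM in replicate 1 and 5.54 CPM in replicate 2.

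Between the pools the 6 genes were about as even as other genes of their level. The counts of each gene were compared by a two-sided exact binomial test with Benjamini-Hochberg adjustment over the 466 genes with at least 10 summed counts. It compares these libraries, takes counting error alone and has no replicate of either pool. At an adjusted p under 0.05 and a difference of at least 2-fold, 0 of the 6 members were called, against 5.79% of all genes tested (27 genes). With no fold limit 5 of 6 passed, against 46.4% of all genes. Most genes tested stood below all 6 members, and with more counts this test passes smaller differences. Neither the 5.79% nor the 46.4% is therefore a share among genes of like level. The median size of the log2 ratio was 0.16 over the 6 members and 0.16 over the 124 tested genes with a mean of at least 500 CPM.

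All 3 miR-99/100 genes were lower in replicate 1 than in replicate 2, and Mir125a was higher. The log2 ratio of replicate 1 over replicate 2 was -0.08 for Mir99a (95% exact interval -0.089 to -0.076), -0.18 for Mir99b (-0.20 to -0.17) and -0.23 for Mir100 (-0.25 to -0.21), and 0.33 for Mir125a (0.30 to 0.35). By the exact binomial test their adjusted p was 4.14e-132, 1.00e-157, 8.33e-124 and 1.00e-141 in the same order. Mir125b-2, at 0.14 (0.072 to 0.21), had an exact adjusted p of 0.000157, and Mir125b-1, at 0.00 (0.0018; -0.064 to 0.067), one of 1. These adjusted p take counting error alone, and the libraries differed by more than that (chi-square per degree of freedom 204). They therefore do not measure the spread between pools. The median gene had a ratio of 0.11 with library totals and 0.00 (0.00025) with edgeR's TMM scaling. With TMM, Mir125b-1 stood at -0.15 and Mir125b-2 at -0.02, while the miR-99/100 genes stayed below 0 and Mir125a above it. Of the 10 let-7 genes tested, 0 were called at 2-fold, against 5.79% of all genes, and 8 passed with no fold limit, against 46.4%. Most genes tested stood below these too, so again neither the 5.79% nor the 46.4% is a share among genes of like level.

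**Figure D4:**
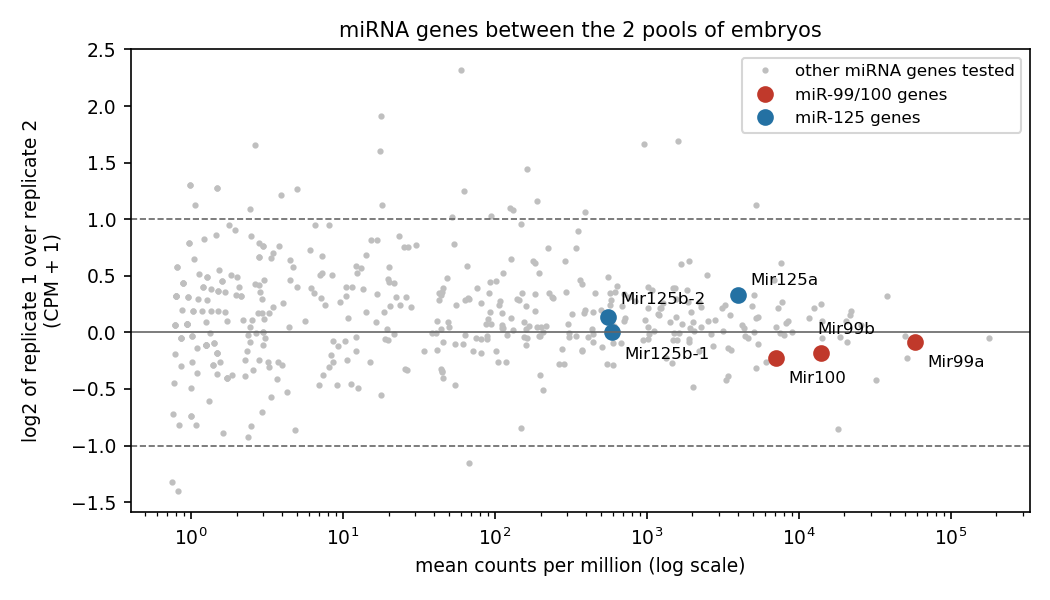
Log2 of replicate 1 over replicate 2 (CPM + 1) against mean CPM on a log axis, for the genes tested; dashed lines mark 2-fold. The 6 genes lie between -0.23 for Mir100 and 0.33 for Mir125a, inside the dashed lines.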

How the data were processed

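Per the labels, small RNA below 30 nt was sequenced from 2 pools of embryonic stomach. The authors deposited raw read counts per miRNA gene, for mm10 and GENCODE M4 per the deposited description files. No aligner or read counter is named in the labels or headers read here. Of the 3 unlabelled count columns the first is the total of the rest, and the second, with nearly all counts of known miRNAs, was taken as sense. Lines naming no gene were left out of totals; reads matching several places were 25.5% and 27.0% of all reads in replicates 1 and 2, unmapped reads 18.0% and 16.2%, and reads outside genes 2.92% and 2.26%.

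GENCODE M21, on the same assembly, gave symbols and positions for 1894 of 1973 identifiers. Sequences come from the RefSeq table, matched by symbol; all 6 members matched. CPM, log2(CPM + 1) differences with SD over 2 pools, Wilson and exact (Clopper-Pearson) 95% intervals and exact binomial tests were computed. The libraries differed by more than counting error (chi-square per degree of freedom 204). The test was checked on simulated data with counting error alone, so this check says nothing of the wider spread between these libraries. The members and lists were chosen with earlier results of these data known. Named were the members, the let-7 list, genes sharing a seed, and the next genes in rank; Mir10a and Mir10b were added as relatives. Tissue markers were given only as a check. Alternatives covered pseudocount, strand, scaling, count minimum, fold limit, copies and leaving out a replicate. Software was edgeR 4.0.16 and DESeq2 1.42.0 under R 4.3.3, and scipy 1.17.1, pandas 2.3.3, numpy 2.4.6 and matplotlib 3.10.9 under Python 3.11.15.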

Additional observations from a re-analysis of the deposited data

Results flagged for a closer look

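Signal stood in counts that the comparisons between genes do not use. Opposite-strand counts at Gm25927, which covers the unlisted Mirlet7e, were 35563 in replicate 1 and 38802 in replicate 2, above the 3 counts that a count of 0 allows. Reads matching several places numbered 2946663 in replicate 1 and 3406967 in replicate 2, equal to 49.2% and 51.0% of the sense gene counts; how many of them are miR-125b, let-7a or let-7c was not tested.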

How the results depend on the processing

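Of 153 values recomputed under an alternative, 130 kept their direction and size or call, 12 moved, 6 reversed and 5 newly passed a threshold. Some of the 130 could not change. No gene of the pairs had under 10 counts in a library, and a count minimum leaves a gene's ratio as it is. Summing copies gave 6 of the moved values: Mir125a minus either Mir125b gene became 1.78, Mir99a minus Mirlet7c-1 7.50 and Mir100 minus Mirlet7a-2 4.14. With the let-7 copies alone summed, Mirlet7c-1 minus Mir125b-2 became -0.78 (from -1.78) and Mirlet7a-2 minus Mir125b-1 -0.57 (from -1.59). The Mir125b copies were not summed in these 2 differences, so the moves come from summing 1 side only. Adding a gene's copies can only raise its level. The members' share of 8.48% was 4.44% of all reads, by the larger denominator. Against 27 genes called between the pools, edgeR's exact test, whose spread comes from the same 2 libraries, called 4, pseudocount 5 left 13, a floor of 100 summed counts left 16, and dropping the fold limit gave 216, among them 5 members in place of 0. The ratio of Mir125b-1 turned to -0.15 with TMM, -0.15 with DESeq2 size factors, -0.13 with edgeR's exact test and -0.0026 with both strands, and that of Mir125b-2 to -0.016 with TMM and -0.016 with DESeq2; the scaling moved all ratios alike. Leaving out a replicate only returns the other library's value, such as a members' share of 8.21% or 8.74%, and is no test of stability. Testing the pools without a replicate was not possible, and Mirlet7e has opposite-strand values only, so no second value was set against them. No paired analysis was possible because all samples form 1 group. Depth limits none of the 6 genes, the lowest count in a library being 3473.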

Other observations

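The miR-10 genes, embedded in Hox clusters, are sequence relatives of miR-99 and miR-100: miR-10a-5p and miR-99a-5p share a run of 10 bases, while their seeds (in capitals) differ.
miR-10a-5p, chromosome 11, plus strand: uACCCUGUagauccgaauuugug
miR-99a-5p, chromosome 16, plus strand: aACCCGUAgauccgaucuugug
Mir10a stood at 42478 CPM in replicate 1 and 33991 CPM in replicate 2, and Mir10b at 7204 CPM and 3299.8 CPM. The miR-99/100 genes together had 1.54 times the counts of the miR-10 genes in replicate 1 and 2.22 times in replicate 2. Mir10b was higher in replicate 1 by 1.13 (log2, exact 95% limits 1.10 and 1.15) and was called by the exact binomial test at 2-fold, unlike the 6 members.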
